A study of Oryctolagus cuniculus with 4 samples.

Results

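The mitochondrial chromosome of the rabbit carried 13 protein-coding genes in the deposited table of 20294 genes, and 8 of them are described here. They are the 7 subunits of respiratory complex I (ND1, ND2, ND3, ND4L, ND4, ND5 and ND6) and CYTB, the cytochrome b of complex III. They were chosen by position alone, as all genes with coordinates on that chromosome except the 5 of cytochrome oxidase and ATP synthase (COX1, COX2, COX3, ATP6 and ATP8). The tissue was the intact semitendinosus tendon, a hamstring tendon used as graft, of New Zealand White rabbits, all female and aged 193 days, with 1 tendon from each of 4 animals. The labels name no treatment and give 1 group, and surface muscle had been scraped off with a blade before the tendon was frozen. The tendons differ as animals, as tissue pieces and as libraries, and these sources of spread cannot be told apart.

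Complex I takes electrons from NADH and passes them to ubiquinone while pumping protons across the inner mitochondrial membrane. Its proton-pumping membrane arm is built around the 7 subunits encoded in the mitochondrion, whereas the arm that binds NADH is encoded in the nucleus. Complex III takes the electrons on to cytochrome c, and cytochrome b is its only subunit encoded in the mitochondrion. The mitochondrial chromosome is transcribed from both strands into long precursors that are cut mostly at the transfer RNAs lying between the genes, so the genes share promoters and their RNA levels depend largely on processing and decay. Tendon is sparsely vascularised, and its fibroblasts are regarded as cells of low oxygen consumption.

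Libraries held 19759696, 30646052, 27304439 and 30038827 estimated counts in tendons 1 to 4, from polyadenylated RNA. Marker genes of tenocytes, as the fibroblasts of tendon are called, were present: 7 of 10 symbols had an entry, and all 7 averaged 10 or more in CPM, counts scaled to the library total without length correction. Skeletal muscle markers were present too, and their values stand beside the results that they touch. Levels are given as TPM, the transcript abundance that corrects counts for transcript length and scales each tendon to the same total, so that genes can be compared with one another. In bulk tissue, fewer cells of a type, fewer mitochondria and less RNA per mitochondrion cannot be told apart.

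Of all TPM, the 8 genes held 2.75% in tendon 1, 2.97% in tendon 2, 4.20% in tendon 3 and 3.95% in tendon 4. Their mean was 3.47% ± 0.711 (SD, n = 4), with ND4L counted together with a pair of unplaced genes described below. Tendons 3 and 4 were higher than tendons 1 and 2. All 8 ranked among the 60 most abundant of the 20294 genes by mean TPM, from ND4 at rank 12 to ND4L at rank 60 when its mitochondrial entry was taken alone. Without ND4L, whose entry held as few as 25.2 counts, every gene had at least 9857 estimated counts in every tendon. Counting error was then at most 1.01% of a value.

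ND4L was the exception among the 8 genes. Its own entry was high in some animals and near 0 in the others, and in those others a pair of entries of the same length was high instead. ND4L encodes a small membrane subunit of complex I and lies at 9906 to 10202 on the mitochondrial chromosome (OryCun2.0; ENSOCUG00000029107.1, 297 bases). Its own entry held 9552.67, 32.3, 25.2 and 21597.2 estimated counts in tendons 1 to 4, or 3218, 6.36, 5.55 and 4328 TPM. In tendons 1 and 4 the entry was thus near the neighbouring gene ND3 (2842 and 4224 TPM) and below the neighbouring gene ND4 (6115 and 8286 TPM). Tendons 2 and 3 were about 779-fold lower at the extreme (tendon 4 against tendon 3).

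An unnamed pair of genes on the unplaced scaffold AAGW02081404 (ENSOCUG00000023301.1 at 6590 to 6886 and ENSOCUG00000025982.1 at 24130 to 24426, minus strand) had the same annotated length of 297 bases in a single block. Each of the pair held 14.7, 7694, 12133 and 22.9 estimated counts in tendons 1 to 4, the same value for both in every tendon. These genes were therefore high in the tendons in which the ND4L entry was low, and low where it was high. Equal values in all 4 tendons were rare in the table, with 13 such entries in 6 sets among the 8780 genes that averaged 10 CPM or more. Counts of the 3 entries were fractional, as estimated counts are when reads fit more than 1 transcript. Fractional counts in some tendon were common, in 34.9% of these 8780 genes. Sequences of these entries were not used here, so how far they differ was not tested.

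The 3 entries summed to 9582, 15420, 24292 and 21643 estimated counts. Each sum was a whole number to the digits given, although the counts of its 3 entries were fractional. ND4L itself held 99.7% of that sum in tendon 1 (95% Wilson interval 99.6 to 99.8), 0.209% in tendon 2 (0.147 to 0.293), 0.104% in tendon 3 (0.0697 to 0.152) and 99.8% in tendon 4 (99.7 to 99.8). The intervals cover counting error only and take estimated counts as if they were counted reads. In each tendon nearly all of these estimated counts lay on one side or the other. How the reads themselves were divided between the entries was not tested. Summed levels were 3228, 3037, 5342 and 4337 TPM, and the ratio of the highest to the lowest tendon fell from 779 for the mitochondrial entry alone to 1.76. ND3, its upstream neighbour, had 2842, 3570, 5410 and 4224 TPM. Both were highest in tendon 3, but ND3 was lowest in tendon 1 and the sum in tendon 2. Below, ND4L means this sum unless its own entry is named.

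**Figure D1:**
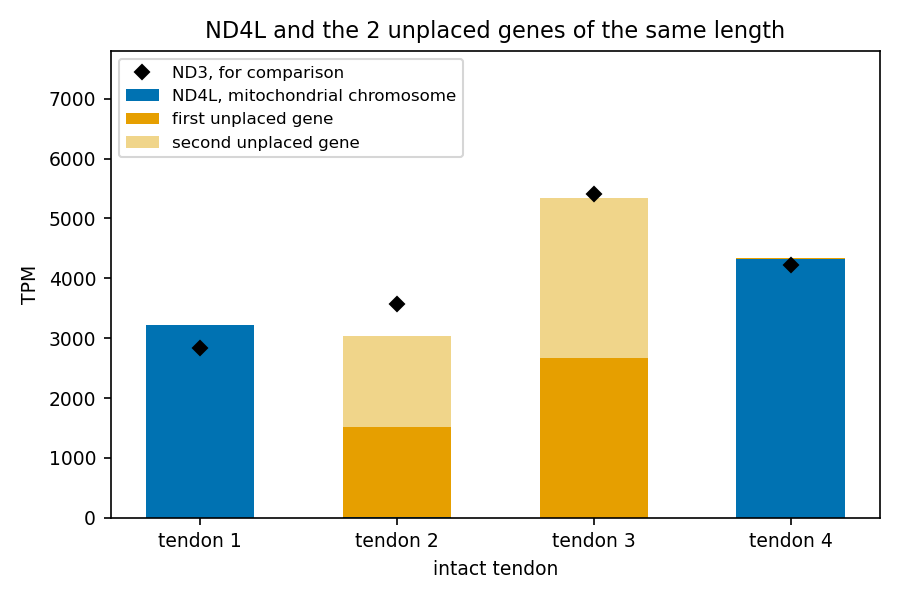
Stacked bars show TPM of the ND4L entry on the mitochondrial chromosome and of the 2 unplaced genes of 297 bases in each intact tendon, and diamonds show TPM of ND3. In tendons 1 and 4 the mitochondrial entry makes up the bar (3218 and 4328 TPM), in tendons 2 and 3 the unplaced genes do (1515 and 2668 TPM each), and the whole bars lie between 3037 and 5342 TPM.

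For the other 7 genes, no entry of the same length at 1 CPM or more exceeded them in any tendon. Equal length does not by itself make an entry a copy, and copies of other lengths were not looked for. Counts of ND1, ND2, ND3 and ND6 were whole numbers in all 4 tendons. Most genes were alike in this, as 34.9% of the 8780 genes at 10 CPM or more had a fractional count in some tendon. The largest values were deposited without decimals, so whole numbers could be seen for ND5 in 3 tendons and for ND4 and CYTB in 1 tendon each, and were seen in all of those. Outside the mitochondrial chromosome, 33 genes with a mean of 1 CPM or more had the same length as 1 of these 7, and 3 of the 33 were in a single block. An unnamed gene of 1812 bases in a single block on unplaced scaffold AAGW02081999 matched the length of ND5 (ENSOCUG00000029660.1, 105 to 1916). It held 345, 402, 383 and 408 counts in tendons 1 to 4, between 0.395% and 0.907% of the count of ND5. Adding it would not move the level of ND5 by more than that. Entries in more than 1 block reached higher shares. An unnamed gene on chromosome 13 with the length of CYTB (ENSOCUG00000028047.1, 124017447 to 124025355, minus strand) held 7400, 15621, 13883 and 13356 counts, between 8.75% and 12.4% of CYTB, as fractional numbers in all 4 tendons. One on chromosome 12 with the length of ND6 (ENSOCUG00000024129.1, 63870315 to 63870866) held 2424, 3174, 2863 and 3062 counts, all whole numbers, between 9.31% and 20.9% of ND6. Whether either shares reads with the mitochondrial gene was not tested.

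ND4 and CYTB were the most abundant of the 8 genes. ND4, a proton-pumping subunit of complex I (ENSOCUG00000029108.1, 10196 to 11573, 1378 bases), had 6115, 6356, 9483 and 8286 TPM in the 4 tendons, on average 7560 ± 1608 (SD, n = 4). CYTB (ENSOCUG00000029115.1, 14175 to 15313, 1139 bases) had 5714, 6445, 8094 and 7971 TPM, a mean of 7056 ± 1168. Both were lowest in tendon 1 and highest in tendon 3, and ND4 exceeded CYTB in 3 of 4 tendons, with ratios from 0.986 to 1.17. Their order was not resolved (mean log2 ratio 0.09 ± 0.10; p = 0.25 by the exact two-sided sign-flip permutation test, 0.292 after adjustment over 7 neighbouring pairs). With 4 tendons the smallest p of that test is 0.125, so no pair can reach 0.05.

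A middle group held the short genes ND3 and ND4L and the longer genes ND1 and ND2. ND3, a small membrane subunit that forms part of the junction between the arms of complex I (ENSOCUG00000029105.1, 9491 to 9837, 347 bases), averaged 4012 ± 1090 TPM. ND4L averaged 3986 ± 1070 TPM as a sum, and ND3 was above it in 2 tendons and below it in 2. ND1, which helps form the ubiquinone-binding site (ENSOCUG00000029086.1, 2749 to 3703, 955 bases), had 2822, 3313, 4230 and 3922 TPM, a mean of 3572 ± 628. ND2, an antiporter-like pump subunit (ENSOCUG00000029090.1, 3920 to 4963, 1044 bases), had 2497, 2938, 4034 and 3638 TPM, a mean of 3277 ± 690. ND1 and ND2 lay close, but ND1 was the higher in 4 of 4 tendons, by 1.05- to 1.13-fold (exact permutation p = 0.125, 0.292 adjusted).

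CYTB exceeded ND3, the next gene in order, by 1.50- to 2.01-fold in 4 of 4 tendons (exact permutation p = 0.125, 0.292 adjusted). This was the widest step between neighbours in the order, and ND1, ND4L and ND3 overlapped one another across tendons.

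ND6 and ND5 were the lowest. ND5, the largest antiporter-like pump subunit (ENSOCUG00000029112.1, 11772 to 13583, 1812 bases), had 2101, 1980, 2556 and 3392 TPM, a mean of 2507 ± 640. ND6, which lies in the membrane arm (ENSOCUG00000029113.1, 13579 to 14103, minus strand, 525 bases), had 2208, 2087, 2804 and 3730 TPM, a mean of 2707 ± 750. Both were highest in tendon 4 and lowest in tendon 2, unlike the 6 other genes, all of which were highest in tendon 3. The means of the 8 genes spanned a 3.02-fold range from ND5 to ND4, although complex I holds its ND subunits in equal number.

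**Figure D2:**
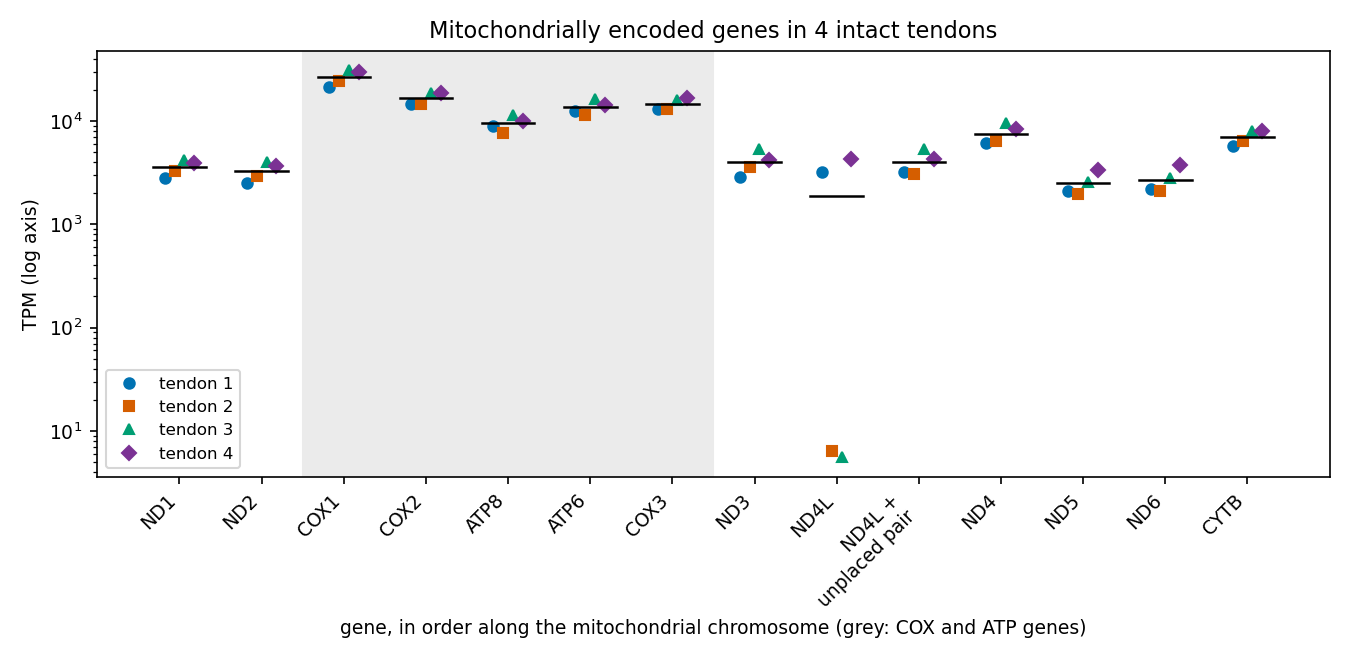
TPM on a log axis of the 13 mitochondrially encoded genes in order along the chromosome, with points for tendons 1 to 4 and a bar at their mean; COX and ATP genes are on grey. ND4 and CYTB stand above the other ND genes, ND4L alone splits into 3218 and 4328 TPM in 2 tendons and 6.36 and 5.55 TPM in the others, and its sum with the unplaced pair does not.

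Order by level depended on how length was corrected for the short genes. The authors' effective lengths, which allow for the size of the sequenced fragments, were not used here. With every length reduced by 100 bases, ND4L and ND3 stood at 5205 and 4881 TPM, below ND4 and CYTB, at 7061 and 6700 TPM. With a reduction of 200 bases, ND4L had the highest mean at 8626 TPM, followed by ND3 at 6691, ND4 at 6251 and CYTB at 6051 TPM. ND5 was the lowest of the 8 under all 3 lengths. ND4, CYTB, ND1, ND2 and ND5, each of at least 955 bases, kept the same order among themselves. Levels of ND4L, ND3 and ND6, of 525 bases or less, are accordingly the least certain.

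**Figure D3:**
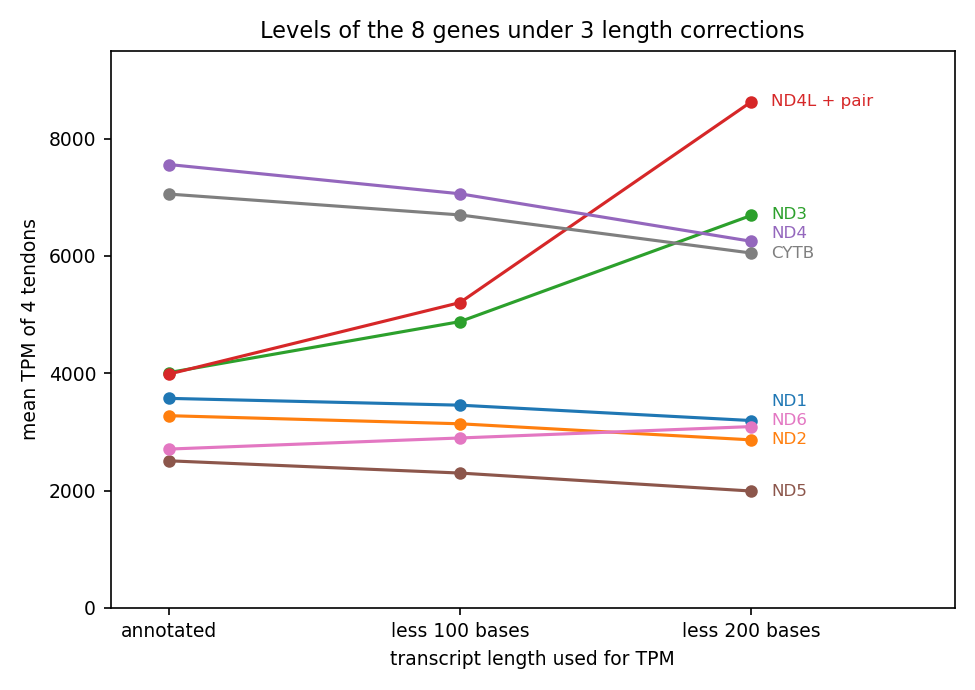
Mean TPM of 4 tendons for each of the 8 genes, with the annotated transcript length and with lengths reduced by 100 and 200 bases. ND4L with the unplaced pair goes from 3986 to 8626 TPM and ND3 from 4012 to 6691 TPM, while ND4 goes from 7560 to 6251 TPM.

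Position along the chromosome was set beside these levels. The 7 genes other than ND6 lie on one strand and ND6 on the other. Gaps that hold transfer RNA genes separate ND1 from ND2 (216 bases), COX3 from ND3 (70 bases), ND3 from ND4L (68 bases), ND4 from ND5 (198 bases) and ND6 from CYTB (71 bases). ND4L and ND4 overlap by 7 bases and ND5 and ND6 by 5 bases, so these pairs have no transfer RNA between them. Annotated lengths of ND1, ND3, ND4 and CYTB are not multiples of 3. In mammalian mitochondria such reading frames end in a partial stop codon that is completed when the poly(A) tail is added.

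ND4L and ND4 are translated from a single messenger RNA in mammals, so their ratio was fixed as a comparison. ND4 was 1.89, 2.09, 1.78 and 1.91 times ND4L in tendons 1 to 4, a mean log2 ratio of 0.94 ± 0.10 (SD, n = 4; exact permutation p = 0.125, also 0.125 after adjustment over 9 ratios). Each of the 9 fixed ratios lay on one side of 1 in 4 of 4 tendons and had this p, the smallest the design allows. The ratio varied little between animals, but its direction rested on the length used. With lengths reduced by 200 bases the mean log2 ratio was -0.45, below 1 in each tendon.

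ND5 and ND6 are encoded on opposite strands and overlap at their ends, and they had the most constant ratio of all 28 pairs of members. ND5 was 0.951, 0.949, 0.912 and 0.909 times ND6, with an SD of the log2 ratio of 0.04. By contrast, the SD for all 28 pairs had a median of 0.19 and reached 0.36 for ND3 and ND5. In mammals ND6 messenger RNA is known for having little or no poly(A) tail, and the libraries were made from polyadenylated RNA. Use of strand in the counting is not given in the sources used here, so reads of ND6 cannot be told apart from antisense RNA of the ND5 strand that runs through it. The value of ND6 is uncertain for that reason.

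Apart from ND5 and ND6, which moved together, close pairs were ND1 with CYTB (SD of the log2 ratio 0.04), ND1 with ND2 (0.05) and ND2 with ND4 (0.08). ND1 and CYTB lie near opposite ends of the coding region. ND4 was 2.91, 3.21, 3.71 and 2.44 times ND5, its neighbour across the transfer RNA gap, so this ratio was lowest in tendon 4. ND5 was 0.368, 0.307, 0.316 and 0.426 times CYTB, highest in tendon 4. 

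Every one of the 8 genes was higher in tendons 3 and 4 than in tendons 1 and 2. This pattern was noticed in the values, and 16.6% of the 8780 genes at 10 CPM or more showed it. COX1, COX2, COX3, ATP6 and ATP8 on the same chromosome showed it too. The lowest tendon was tendon 1 for 5 of the 8 genes and tendon 2 for ND4L, ND5 and ND6, against 22.0% of all genes lowest in tendon 1. Under TMM or DESeq2 scaling, which moved the median of all genes in tendon 2 up by 0.14 and 0.13 on the log2 scale, all 8 were lowest in tendon 1, against 30.2% and 29.6% of all genes. Tendon 3 was highest for 6 of 8 genes, compared with 15.2% of all genes, and tendon 4 was highest for ND5 and ND6, compared with 27.6%. These counts of genes highest in tendons 3 and 4 were the same under every scaling tried.

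Spread between animals was moderate. With ND4L summed, 0 of the 8 genes reached a 2-fold range between tendons, against 11.1% of all 8780 genes and 5.69% of them without tendon 1. The ratio of highest to lowest ranged from 1.42 for CYTB to 1.90 for ND3, with a median of 1.66, above the median of 1.35 over all genes tested. SD of log2(TPM + 1) had a median of 0.33 over the 8 genes, from 0.24 to 0.39, compared with 0.19 over all genes tested. ND4L taken alone had an SD of 5.24. No tendon stood apart from the other 3 by Dixon's ratio, at its 95% critical value, in any level or ratio of the 8 genes or in the shares of the 5 lists of nuclear genes for mitochondrial proteins. Of 36 values tested, 1 passed it, the share of fast muscle markers in tendon 4. As they are cut from shared precursors, they are not 8 independent measurements.

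**Figure D4:**
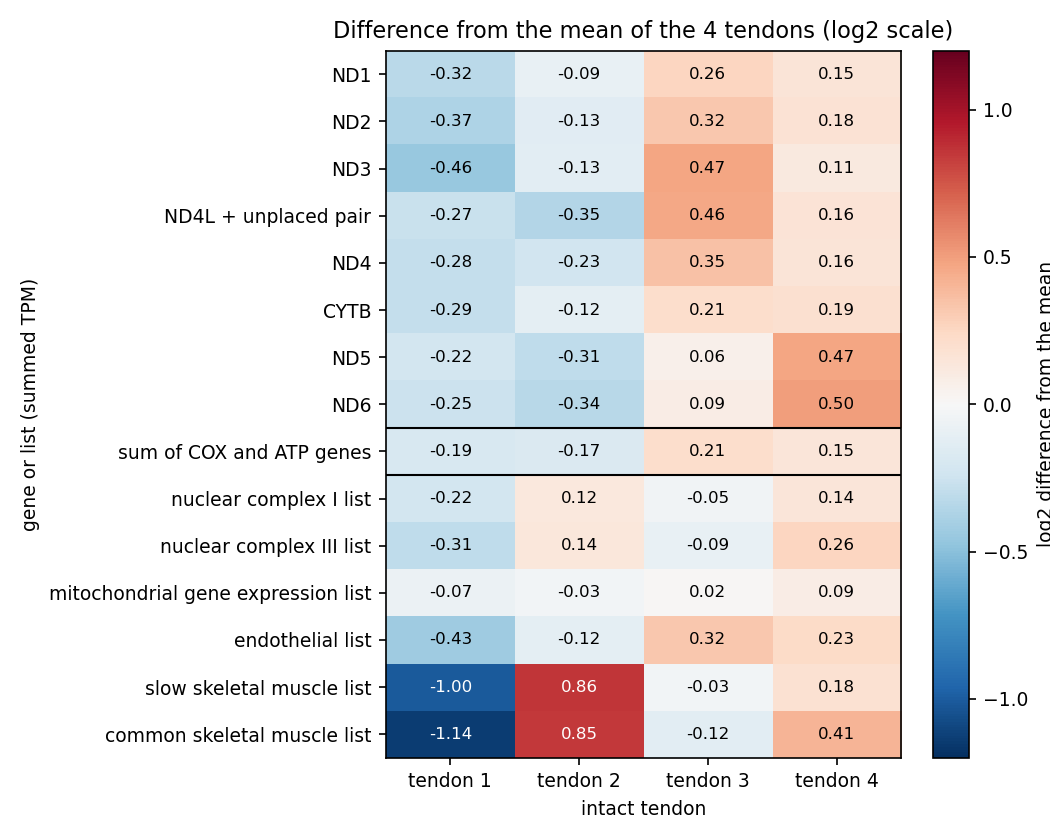
Differences from the mean of the 4 tendons on the log2 scale for the 8 genes, the summed COX and ATP genes, and the summed TPM of gene lists. In TPM, the 8 genes are below their mean in tendons 1 and 2 and above it in tendons 3 and 4. The nuclear complex I list is above its mean in tendons 2 and 4, and the slow and common muscle lists peak in tendon 2.

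The other 5 mitochondrially encoded genes, of cytochrome oxidase and ATP synthase, were several times more abundant. They took 7.07%, 7.16%, 9.36% and 8.93% of TPM in tendons 1 to 4, the same order of tendons as the member sum except for a smaller gap between tendons 1 and 2. Per gene, the members were at 0.243, 0.260, 0.280 and 0.277 times these genes, a mean log2 ratio of -1.92 ± 0.09 (SD, n = 4), lower in 4 of 4 tendons (exact permutation p = 0.125). COX3, a core subunit of cytochrome oxidase, lies just before ND3. ND3 was 0.218, 0.271, 0.341 and 0.251 times COX3, a mean log2 ratio of -1.91 ± 0.27. Its size rested on the length used: it was -1.09 with lengths reduced by 200 bases and -3.08 in CPM, where the ratio of the groups was -1.96 and -1.84. ND4, the highest member, was lower than ATP8, the lowest of the 5, in mean TPM (7560 ± 1608 against 9519 ± 1609). The level of ATP8 rests on an annotated length of 204 bases. In mean CPM, without length correction, ND4 was above ATP8 (5715 against 1062).

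Nuclear partners in complexes I and III were far less abundant. Of 37 nuclear complex I symbols, 18 had an entry, and all 18 averaged 10 CPM or more. Summed, they held 0.173%, 0.219%, 0.195% and 0.222% of TPM in the 4 tendons, on average 0.202% ± 0.0230 (SD, n = 4). NDUFA6, an accessory subunit, led at 248 ± 33.3 TPM, followed by the accessory subunits NDUFB9 at 186 ± 38.4, NDUFS5 at 168 ± 19.5 and NDUFA2 at 135 ± 15.6 TPM. The lowest measured was NDUFB4, also an accessory subunit, at 15.9 ± 1.68 TPM. Its annotated transcript is 4352 bases long.

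Per gene, the 7 ND genes were 32.5, 27.4, 44.7 and 36.5 times the nuclear complex I list, a mean log2 ratio of 5.12 ± 0.30 (exact permutation p = 0.125). Tendon 3 had the highest ratio and tendon 2 the lowest. The nuclear list itself was lowest in tendon 1, as were 16 of its 18 genes, against 22.0% of all genes tested. Of the 18, 10 were highest in tendon 4 but 2 in tendon 3, against 27.6% and 15.2% of all genes tested. The nuclear complex I list and the sum of the 8 mitochondrial genes were thus both lowest in tendon 1. In tendon 2, in TPM, the nuclear list was above its mean and the 8 mitochondrial genes were below theirs. The nuclear list had 0 genes with a 2-fold range and a median SD of log2(TPM + 1) of 0.17, near the 0.19 of all genes tested.

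For complex III, 3 of 9 nuclear symbols had an entry, so this list covers a small part of the complex. UQCRQ and UQCRB, accessory subunits, stood at 284 ± 57.2 and 245 ± 37.3 TPM, and the core subunit UQCRC1 at 57.9 ± 11.7 TPM. CYTB was 36.6, 30.3, 44.4 and 34.4 times the mean of the 3 genes (mean log2 ratio 5.17 ± 0.23; exact permutation p = 0.125). Again tendon 3 had the highest ratio and tendon 2 the lowest. All 3 nuclear genes were lowest in tendon 1, against 22.0% of all genes tested.

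**Figure D5:**
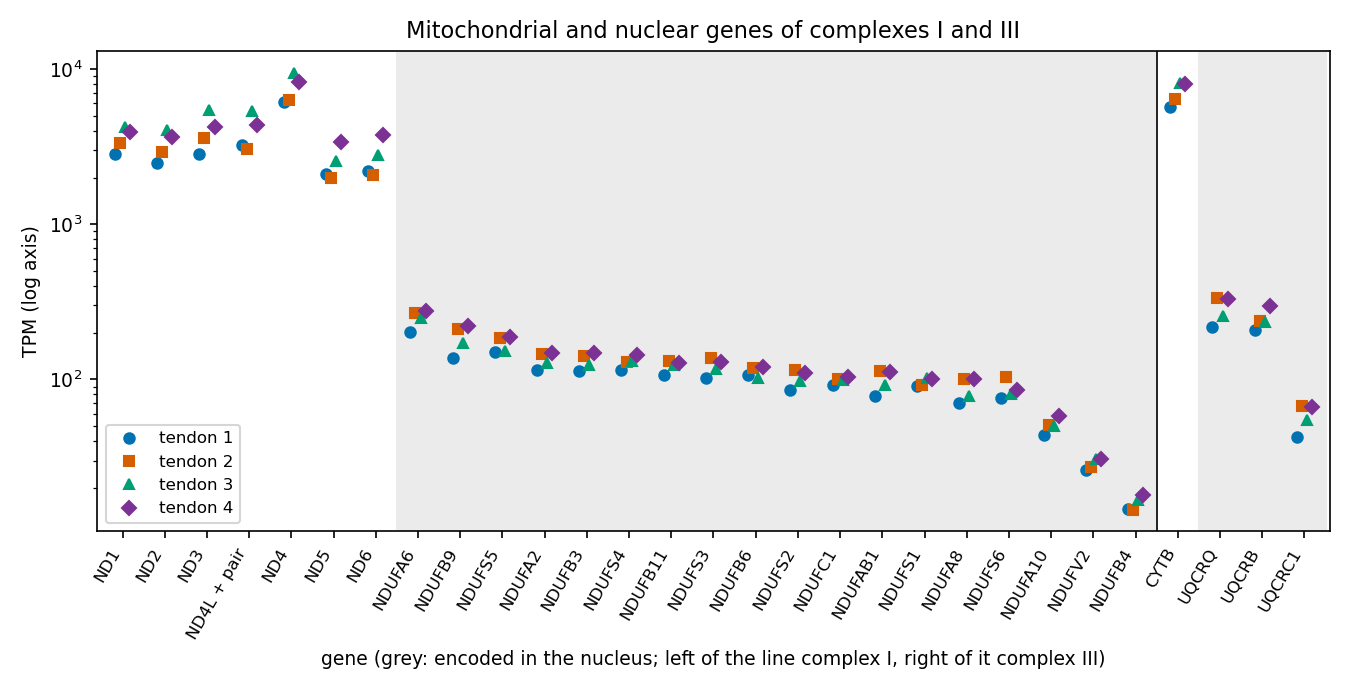
TPM on a log axis of the 7 ND genes, 18 nuclear complex I genes (grey), CYTB and 3 nuclear complex III genes (grey) in tendons 1 to 4. The highest nuclear value is 332 TPM (UQCRQ in tendon 2), and the lowest mitochondrial value 1980 TPM (ND5 in tendon 2).

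Assembly factors were lower still. For complex I, 14 of 17 symbols had an entry and took 0.0272% ± 0.00265 of TPM. NDUFAF3 led them at 71.9 ± 10.004 TPM, with ECSIT, also a complex I assembly factor, at 33.7 ± 4.23, DMAC2 at 26.4 ± 3.01 and TIMMDC1 at 23.1 ± 3.30 TPM, and NUBPL, which serves iron-sulfur cluster assembly in complex I, was the lowest at 6.79 ± 0.593 TPM. For complex III, all 6 symbols had an entry and took 0.0278% ± 0.00165, led by UQCC3 at 90.5 ± 11.4 and UQCC2 at 84.1 ± 5.41 TPM. UQCC1 and TTC19 followed at 39.1 ± 1.21 and 32.1 ± 3.22 TPM, and LYRM7 was the lowest at 7.06 ± 1.39 TPM. Among those at 10 CPM or more, 8 of 8 complex I factors and 3 of 6 complex III factors were lowest in tendon 1, against 22.0% of all genes tested.

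Genes that copy, transcribe and process mitochondrial RNA were also of low abundance. Of 39 symbols, alternative names included, 27 had an entry, and they took 0.0487%, 0.04995%, 0.0517% and 0.0542% of TPM in tendons 1 to 4. GRSF1, a protein of mitochondrial RNA granules, led at 63.8 ± 4.78 TPM. It was followed by HSD17B10, a subunit of mitochondrial RNase P, at 49.98 ± 11.0, the nuclear transcription factor subunit GABPA at 43.4 ± 3.68, and LRPPRC, which stabilises mitochondrial messenger RNAs, at 41.0 ± 1.54 TPM. SSBP1, the mitochondrial single-stranded DNA binding protein, was the lowest at 0.172 ± 0.125 TPM. Its entry is of 447 bases in a single block on chromosome X (98660004 to 98660450). Whether this entry measures the messenger RNA of SSBP1 was not tested. TFAM, which packages mitochondrial DNA and starts its transcription, had 17.6, 15.2, 18.9 and 19.3 TPM and was named after its values were seen. Of the 19 genes in this list that averaged 10 CPM or more, 0 had a 2-fold range and the median SD of log2(TPM + 1) was 0.13, with HSD17B10 at 0.34, inside the range of the 8 members. Of the same 19 genes, 7 were lowest in tendon 1, against 22.0% of all genes tested.

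Skeletal muscle is rich in mitochondria, and muscle markers differed between tendons. Slow fibre markers (7 of 9 symbols with an entry, 0 at zero) took 0.467%, 1.70%, 0.915% and 1.06% of TPM in tendons 1 to 4, led by TNNC1 at 3782 ± 1956, TNNI1 at 2540 ± 1301 and MYL3 at 1777 ± 947 TPM. Markers common to all fibres (10 of 12) took 0.586%, 2.32%, 1.18% and 1.71%, led by ACTA1 at 7547 ± 4281, MB at 2096 ± 799 and TCAP at 1830 ± 959 TPM. Fast fibre markers (7 of 9) took 0.00174%, 0.00805%, 0.00233% and 0.239%, led by TNNC2 at 238 ± 459, MYLPF at 153 ± 280 and ATP2A1 at 72.3 ± 117 TPM, values set by tendon 4. Muscle lists and the sum of the 8 genes were lowest in tendon 1. So were the endothelial and adipocyte markers and the lists of nuclear genes for mitochondrial proteins, so this was not particular to muscle. In TPM, ND4L, ND5 and ND6 were lowest in tendon 2. In tendon 2, where slow and common markers were highest, the 8 genes were below their mean in TPM. ND1 lay closest, at -0.09 on the log2 scale, and TMM scaling moved the median of all genes there by 0.14. For single genes the statement thus depends on the scaling. Under TMM the sum of the 8 genes in tendon 2 was 32649, against a mean of 34563 over the 4 tendons. The part of muscle in the levels of the 8 genes was not tested.

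Other marker lists gave further orders of tendons. Endothelial markers (7 of 7) took 0.0225%, 0.0279%, 0.0378% and 0.0354% of TPM, the same order of tendons as the member sum, led by PECAM1 at 89.8 ± 26.4, VWF at 55.1 ± 16.6 and CLDN5 at 52.6 ± 9.72 TPM. Macrophage markers (8 of 8) took 0.00875%, 0.00705%, 0.0168% and 0.0218%, led by C1QC at 26.6 ± 13.8, CSF1R at 25.4 ± 10.6 and MRC1 at 21.9 ± 8.15 TPM. Adipocyte markers (6 of 9) took 0.0247%, 0.0400%, 0.0542% and 0.103%, led by ADIPOQ at 239 ± 70.9, FABP4 at 152 ± 120.5 and LPL at 135 ± 122 TPM. Tenocyte markers (7 of 10) took 4.61%, 3.58%, 1.72% and 1.93%, led by COL1A2 at 8636 ± 4974, COL1A1 at 8270 ± 5107 and THBS4 at 6399 ± 1467 TPM. This sum was higher in tendons 1 and 2 than in tendons 3 and 4, and its less abundant members did not all share that order. TNMD, a membrane protein of tendon cells, had 158, 169, 31.7 and 187 TPM and was highest in tendon 4, and the transcription factor EGR1 had 146, 29.1, 58.7 and 41.8 TPM and was lowest in tendon 2; both were named after their values were seen. No marker with an entry was at zero in all tendons. TPM is a share of a fixed total, so the levels of abundant genes bear on those of all others. The part of any of these cell types was not tested. Scaled to the total without mitochondrial genes, or by TMM or DESeq2 factors, the member sum was still lowest in tendon 1 and highest in tendon 3. With the ND4L entry taken alone, the sum was 27516, 26696, 36616 and 39492 TPM, lowest in tendon 2 and highest in tendon 4.

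Genes elsewhere in the genome with the most similar pattern were ranked by the root mean square difference of centred log2(TPM + 1) over 4 tendons, among 7287 named genes. Against the mean of the 7 genes without ND4L, the nearest was PCDH1, a protocadherin, at a difference of 0.0145, with 6.93, 7.82, 10.7 and 10.8 TPM. ARAP3 (0.0335), MMRN2, an endothelial matrix protein (0.0410), MFAP5, a microfibril protein (0.0413), and CDC25B, a cell cycle phosphatase (0.0455), followed. With 4 tendons and so many genes, close matches are to be found for most patterns, and this ranking is a description. With CPM scaled by TMM, ARAP3, MMRN2 and MFAP5 stayed among the nearest 5, and PCDH1 and CDC25B did not. For the ND4L entry alone no named gene came close. The nearest, APOD, differed by 3.49 on the log2 scale, MYH8 by 3.56 and TNNT3 by 3.65.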

How the data were processed

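Poly(A) RNA of 4 intact tendons, 1 group, was measured. The authors deposited estimated counts per transcript, neither scaled for depth nor for length, with Ensembl identifiers, coordinates and transcript lengths as other columns per the file headers. Kallisto 0.42.4, bcl2fastq, FastQC and OryCun2.0 are named in the submitters' processing notes, without roles; filters and use of strand are not given in the sources used here. From these, TPM was computed with annotated lengths and summed per gene, and CPM without length. Means are given with SD over 4 tendons. Totals were 19759696 to 30646052 counts, where 3 counts correspond to 0.0979 to 0.152 CPM, covering counting error only. The 8780 genes averaging 10 CPM or more served as background, with a 2-fold range between tendons or the order of tendons as the call. Ratios within tendons were tested with the exact two-sided sign-flip permutation test and Benjamini-Hochberg adjustment within 9 fixed ratios and 7 neighbouring pairs.

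Alternatives were CPM, lengths reduced by 100 or 200 bases (at least 50 left), TPM without mitochondrial genes, TMM (edgeR 4.0.16) and DESeq2 1.42.0 factors on rounded counts (R 4.3.3), other filters, a pseudocount of 1, ND4L alone and each tendon left out. Other steps ran in Python 3.11.15 with scipy 1.17.1, pandas 2.3.3 and numpy 2.4.6, and the range count was tested on simulated data. Members and gene lists were chosen with earlier results of these data known. Named genes were the 8 members, the unplaced pair, COX and ATP genes used in ratios, the 4 highest and the lowest of each nuclear list, the 3 highest of each marker list, and the nearest 5 and 3 genes in pattern. A nuclear complex III list of 3 genes is named whole. Sequences were not used here.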

Additional observations from a re-analysis of the deposited data

Results flagged for a closer look

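The share of fast skeletal muscle markers in TPM was 0.00174%, 0.00805%, 0.00233% and 0.239% in tendons 1 to 4. Tendon 4 stood apart from the other 3, with a gap of 0.973 of the whole range (Dixon's ratio, past its 95% critical value). It was 1 of 36 levels, ratios and list shares tested, of which chance alone would single out about 1.8. Tendon 4 was also the highest for ND5 and ND6, and the part of muscle in those levels was not tested.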

How the results depend on the processing

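No paired analysis was possible because all 4 tendons form 1 group. The sum of the 8 genes was 34677 TPM, 18560 CPM without length correction and between 32251 and 37060 TPM with a tendon left out. Genes with a 2-fold range numbered 978 of 8780, and 2633 of 12690 at 1 CPM or more, 219 of 1661 at 100 CPM or more, 1957 of 20294 without a filter in CPM with a pseudocount of 1, where 1 member (ND3) counted, and 500 to 857 with a tendon left out. In CPM, list shares were 0.100% for nuclear complex I, 0.0237% for nuclear complex III, 0.0708% for mitochondrial gene expression, 0.0167% for complex I assembly and 0.0103% for complex III assembly. With each tendon left out, the 9 fixed ratios kept their direction, and list shares moved by less than their SD over tendons. The median SD of log2(TPM + 1) of the 8 genes was 0.330, and 0.274 to 0.356 with a tendon left out. With lengths reduced by 200 bases, mean log2 ratios turned to -0.45 for ND4 to ND4L, -0.12 for CYTB to ND3, -0.37 for ND3 to ND4L (-0.0944 with 100 bases, and from -0.0678 to 0.0711 with a tendon left out) and -0.10 for ND2 to ND6; by construction this raises short genes. In CPM they turned to 1.68 for ND5 to ND6 (-1.68 for the inverse) and -1.55 for ND4L to ND1. In TPM with the ND4L entry alone, the mean log2 ratio of ND4L to ND1 was -4.57.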

Other observations

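An unnamed gene of 684 bases in a single block on chromosome 10 (ENSOCUG00000027084.1, 30281620 to 30282303, minus strand) has the annotated length of COX2, and was looked at after the values of ND4L were seen. It held 99.6, 1.99, 4.14 and 207 estimated counts in tendons 1 to 4, higher in tendons 1 and 4 than in tendons 2 and 3, the same split of animals as the ND4L entry. The share of all genes with this split is not given here, and tendons 2 and 3 held only a few counts. Counts of this gene were at most 0.0990% of those of COX2, so the level of COX2 was hardly touched. An unnamed single-block gene on chromosome X with the length of ND2 (ENSOCUG00000024395.1, 70708974 to 70710017) held 21, 42.0, 66.7 and 101 counts, at most 0.158% of ND2, and did not show that split.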
